A study of Arabidopsis thaliana with 8 samples.

Results

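The genes described here are 9 small growth regulators of Arabidopsis thaliana, namely SAUR19 (AT5G18010), SAUR20 (AT5G18020), SAUR21 (AT5G18030), SAUR22 (AT5G18050), SAUR23 (AT5G18060) and SAUR24 (AT5G18080) of the SAUR19 subfamily, and PRE1 (AT5G39860), PRE5 (AT3G28857) and PRE6 (AT1G26945). They were taken by gene identifier from the 18333 genes with a row in any count table. 8 of the 9 had values, and PRE5 was not analysed here because the tables give no row for it. The set was chosen by function after measured log2 fold changes of these genes between the PBL19C3A line and wild type were known, so that difference is described below without a test. Messenger RNA was sequenced from rosettes of untreated Col-0 plants, 28 days old, and each of 4 genotypes has 2 libraries. The wild type (WT) carried neither a mutation nor a transgene per the labels. The PBL19C3A line was a pbl19 mutant with a PBL19C3A-GFP-HA transgene, where PBL19 is a receptor-like cytoplasmic kinase. The sid2 line and the eds1 line were pbl19 mutants with the same construct under the PBL19 promoter, and carried in addition a mutation in sid2 or in eds1. The labels name no allele, and do not say whether the insertion is the same in these lines or how many plants made up a sample. The phenotype label is constitutive immunity for the PBL19C3A and sid2 lines, and that of WT for the WT and eds1 plants. The design text speaks of 1 biological replicate, so the spread that p-values rest on, between libraries 1 and 2 of a genotype, may be technical.

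SAUR proteins are small products of early auxin response genes, and those of the SAUR19 subfamily promote cell expansion. They bind and inhibit PP2C.D phosphatases, which otherwise remove the activating phosphate of plasma membrane proton pumps, so that the cell wall is acidified and loosened. PRE proteins are helix-loop-helix factors without a DNA-binding basic region, which bind and sequester growth-repressing partners such as IBH1, PAR1 and HFR1 downstream of brassinosteroid, gibberellin and light signals.

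The SAUR19 subfamily genes lie together on chromosome 5, from SAUR19 at chr5:5962773-5963405 to SAUR24 at chr5:5983683-5984308, in the RefSeq annotation of build TAIR10.1. Each has 1 coding exon, with 267 coding bases in SAUR21, 276 in SAUR20 and 273 in the other four. PRE1 lies at chr5:15957368-15958559, PRE5 at chr3:10855623-10856787 and PRE6 at chr1:9351160-9352833, each with 2 coding exons and 279, 279 and 285 coding bases. No member overlaps another annotated gene. Coding sequences of the 15 SAUR pairs were 87.7% to 95.2% identical (median 91.2%), and those of the 3 PRE pairs 64.6% to 84.6%. The first 54 coding bases show how alike the SAUR copies are, with capitals for a base that differs from the most frequent base at that position. At the 1 position where 3 copies have a and 3 have t, both are left in lower case.
SAUR19: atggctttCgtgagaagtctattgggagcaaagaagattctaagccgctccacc
SAUR20: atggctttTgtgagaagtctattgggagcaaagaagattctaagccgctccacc
SAUR21: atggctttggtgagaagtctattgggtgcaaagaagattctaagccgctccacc
SAUR22: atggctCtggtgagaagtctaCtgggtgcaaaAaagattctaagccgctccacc
SAUR23: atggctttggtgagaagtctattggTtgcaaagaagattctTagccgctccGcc
SAUR24: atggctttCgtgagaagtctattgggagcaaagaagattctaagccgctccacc

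SAUR19 and SAUR24 were the same over this stretch, and SAUR22 and SAUR23 had 3 bases in capitals each. Reads from such stretches can be placed on more than 1 copy. In windows of 50 transcript bases, 18.5% of those of SAUR19 also occurred in another gene, against 7.11% for SAUR24, 5.83% for SAUR20, 5.19% for SAUR21, 2.63% for SAUR23 and 0.573% for SAUR22. None of the windows of PRE1 and PRE6 did, and at 100 bases no member shared a window. Neither the read length nor the treatment of reads with several matches was given in the sources used here. With reads near 50 bases, the share of reads that could be placed on another gene would be largest for SAUR19, and the summed level of SAUR19 to SAUR24 is given beside the single genes.

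The 300 bases upstream of each annotated gene start were searched on both strands for 5 motifs, because the members differed together between genotypes. The PIF-type E-box CACATG, searched on both strands like the others, occurred in 4 of the 9 windows, those of SAUR19, SAUR21, SAUR22 and PRE6, and in 13.1% of 27443 windows of all genes. In SAUR19, SAUR21 and SAUR22 the same letters flank a match. Windows of the SAUR copies are therefore not independent, and nothing is read from the 4 of 9 beside that share. The G-box CACGTG occurred in 0 of 9 (7.09% of all). The brassinosteroid response element was searched as CGTGCG alone, which can share letters with a G-box, and also occurred in 0 of 9 (1.78% of all). The auxin response element TGTCTC occurred in 2 of 9 (13.0% of all), in SAUR20 and SAUR22, and the W-box core TTGAC of WRKY factors in 4 of 9 (50.4% of all). A match describes these letters, not binding. The windows of SAUR21 (chr5:5968052-5968351, plus strand), SAUR22 (chr5:5975088-5975387, minus strand) and PRE6 (chr1:9350860-9351159, plus strand) are shown because each holds the E-box within the last 105 bases before the gene start. Capitals mark the matches, read toward the gene. The E-box reads CATGTG in this direction in all 3, and GAGACA in SAUR22 is the auxin response element on the other strand.
SAUR21: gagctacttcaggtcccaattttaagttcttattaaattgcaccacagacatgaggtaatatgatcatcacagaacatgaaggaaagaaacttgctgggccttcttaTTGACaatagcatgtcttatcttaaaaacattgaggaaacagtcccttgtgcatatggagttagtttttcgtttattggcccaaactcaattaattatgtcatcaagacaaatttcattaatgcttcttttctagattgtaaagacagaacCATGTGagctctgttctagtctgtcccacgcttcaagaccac
SAUR22: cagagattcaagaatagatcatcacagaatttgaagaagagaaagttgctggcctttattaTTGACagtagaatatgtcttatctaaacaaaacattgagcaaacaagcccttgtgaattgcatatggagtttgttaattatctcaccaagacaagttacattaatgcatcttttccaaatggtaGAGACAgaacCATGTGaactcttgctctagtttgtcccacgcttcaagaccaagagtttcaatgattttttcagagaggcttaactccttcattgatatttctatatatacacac
PRE6: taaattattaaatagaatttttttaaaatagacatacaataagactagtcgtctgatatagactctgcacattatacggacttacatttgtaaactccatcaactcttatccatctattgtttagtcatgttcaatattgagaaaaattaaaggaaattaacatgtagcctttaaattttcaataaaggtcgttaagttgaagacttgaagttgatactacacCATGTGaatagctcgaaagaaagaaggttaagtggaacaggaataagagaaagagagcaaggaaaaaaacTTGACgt

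Library totals ran from 37373977 to 51202472 counts, and the members were covered by 19 counts (PRE1, PBL19C3A library 2) to 772 counts (SAUR21, WT library 1). Levels are the FPKM values made by the authors, fragments scaled for transcript length and sequencing depth, given for libraries 1 and 2 of each genotype and as mean ± SD (n = 2). Rosette leaf markers were high in every library (summed FPKM of 5 genes 18096 to 29489). Of 5 root markers and 6 flower and meristem markers, 1 and 3 had values. PBL19 itself, counted from the endogenous gene and the transgene together, stood at 7.40 and 10.4 FPKM in WT, 65.1 and 37.9 in the eds1 line, 626 and 956 in the sid2 line and 2197 and 1637 in the PBL19C3A line.

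The SAUR19 subfamily was high in WT and the eds1 line and low in the PBL19C3A and sid2 lines. The summed level of the 6 genes was 115 and 94.1 FPKM in WT and 93.5 and 106 in the eds1 line. It was 24.6 and 44.0 FPKM in the sid2 line, and 17.1 and 20.2 in the PBL19C3A line. The mean of the PBL19C3A line was 17.8% of that of WT, the mean of the sid2 line 32.7%, and the mean of the eds1 line 95.2%. WT and the eds1 line overlapped, while the sid2 libraries lay above those of the PBL19C3A line and below the rest. In bulk tissue, fewer cells that express these genes and less of their RNA per cell cannot be told apart.

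**Figure D1:**
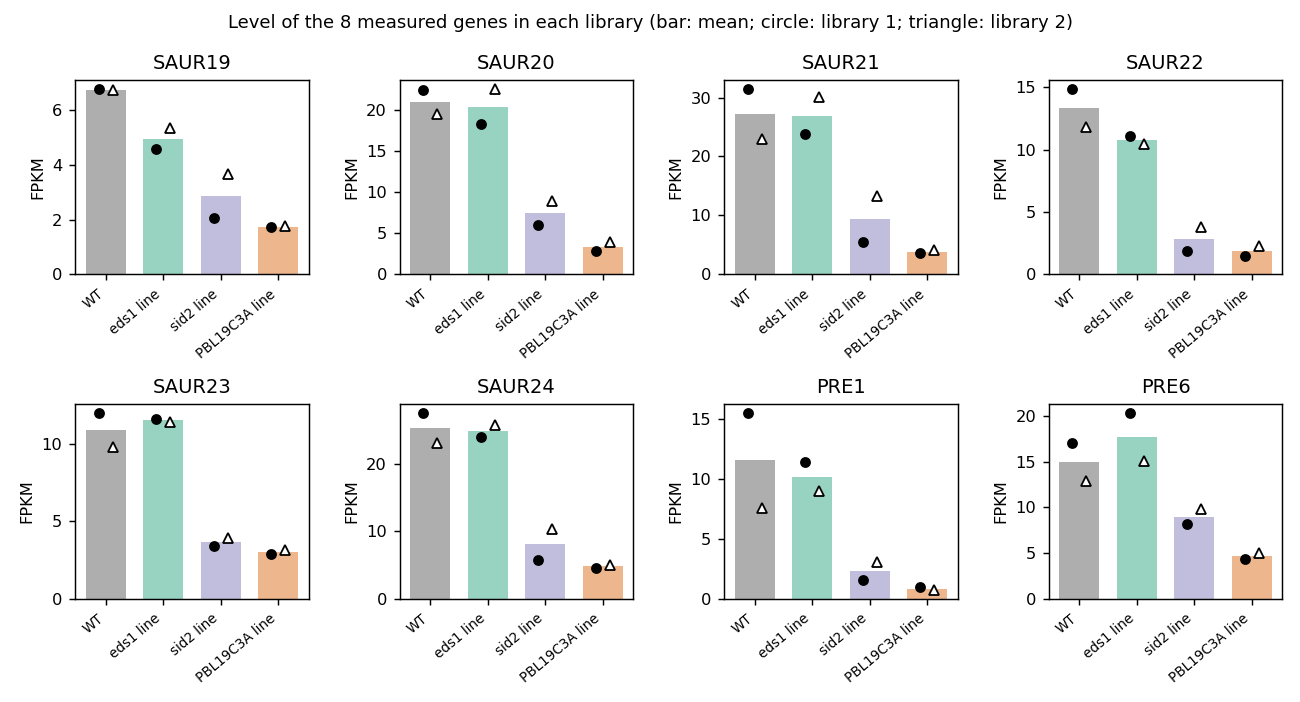
Level of each of the 8 measured members in FPKM (y axis, from 0) by genotype (x axis). Bars are means of 2 libraries, circles library 1 and triangles library 2. In every panel the bars of the sid2 and PBL19C3A lines stand below those of WT and the eds1 line, and PRE1 has the lowest bar of the PBL19C3A line, at 0.806 FPKM.

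SAUR21 had the highest mean level in WT, at 31.5 and 23.0 FPKM, and 3.56 and 4.14 in the PBL19C3A line. It was at 5.51 and 13.3 in the sid2 line and 23.9 and 30.0 in the eds1 line. Both low lines stayed under WT and the eds1 line, whose libraries overlapped, and the sid2 libraries stood far apart from each other. SAUR24 followed in WT with 27.6 and 23.2 FPKM, against 4.61 and 5.07 in the PBL19C3A line. Its place in this and the following orders rests on the length scaling of FPKM. In counts scaled for library size alone, its WT mean was 7.39, under SAUR20 (11.1). In the PBL19C3A line that mean was 1.38, under SAUR21 (2.02). The sid2 line had 5.75 and 10.4 FPKM of SAUR24 and the eds1 line 24.1 and 25.8. SAUR20 came next, at 22.4 and 19.6 FPKM in WT and 18.3 and 22.6 in the eds1 line, with 2.84 and 3.91 in the PBL19C3A line and 6.0 and 8.89 in the sid2 line. In WT the libraries of SAUR21 and SAUR24, the highest pair in the order, overlapped, and the WT libraries of SAUR20 lay under those of both genes. The eds1 line had the same 4 genes at the top as WT, namely SAUR21, SAUR24, SAUR20 and PRE6. In the PBL19C3A line SAUR24 and PRE6, which overlapped, came before SAUR21, and PRE1 was last, while in the sid2 line SAUR21, PRE6 and SAUR24, which overlapped, led and PRE1 was again last.

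SAUR22 stood at 14.9 and 11.8 FPKM in WT and 11.1 and 10.5 in the eds1 line. It was at 1.87 and 3.83 in the sid2 line and 1.44 and 2.22 in the PBL19C3A line, so that these lines overlapped, and it had the lowest share of the WT mean among the SAUR genes (21.3% in the sid2 line, 13.7% in the PBL19C3A line). SAUR23 stood at 12 and 9.79 FPKM in WT, 11.7 and 11.4 in the eds1 line, 2.90 and 3.11 in the PBL19C3A line and 3.39 and 3.92 in the sid2 line. SAUR23 differed little between the low lines, and the libraries of the sid2 line lay closer together than for the other SAUR genes. SAUR19 was the lowest member in WT, at 6.77 and 6.72 FPKM, with 4.57 and 5.34 in the eds1 line, 2.04 and 3.67 in the sid2 line and 1.71 and 1.77 in the PBL19C3A line. For SAUR19 the eds1 libraries lay below both WT libraries, at 73.4% of the WT mean.

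The make-up of the subfamily differed less than its sum. SAUR21 gave 29.3% of the summed counts in WT and 30.4% in each of the eds1 and sid2 lines, against 23.2% in the PBL19C3A line. SAUR23 gave 19.6% in the PBL19C3A line, and 12.6% to 14.1% elsewhere. SAUR19 gave between 5.69% (eds1 line) and 10.7% (PBL19C3A line), and SAUR24 between 14.2% (sid2 line) and 15.9% (PBL19C3A line).

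Of the PRE genes, PRE1 had the lowest share of the WT level in both low lines among all 8 measured members. It stood at 15.5 and 7.60 FPKM in WT, 11.4 and 8.99 in the eds1 line, 1.52 and 3.03 in the sid2 line and 0.937 and 0.675 in the PBL19C3A line. The PBL19C3A mean was 6.98% of that of WT and rested on 33 and 19 counts, and the sid2 mean was 19.7%. The WT libraries of PRE1 stood far apart, and the eds1 libraries lay between them. PRE6 (KIDARI), which binds the growth-repressing partner HFR1, had the smallest fall against WT of the members in both low lines. It stood at 17.1 and 12.9 FPKM in WT, 20.3 and 15.1 in the eds1 line, 8.17 and 9.82 in the sid2 line and 4.36 and 5.01 in the PBL19C3A line. The sid2 libraries of PRE6 lay between the other groups without overlap, at 60.1% of the WT mean against 31.3% in the PBL19C3A line.

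Counts were compared in 1 fit of all 8 libraries with edgeR's quasi-likelihood test, with p-values adjusted over all genes of a comparison by Benjamini-Hochberg and a threshold of 0.05. Log2 fold changes are given ± their standard error. In the PBL19C3A line against WT, all 8 measured members were lower, from -1.72 ± 0.23 for PRE6 to -3.83 ± 0.49 for PRE1, with a median of -2.54 where the median of all genes was 0.02. Of all genes tested in this comparison, 14.9% were called lower. These values led to the choice of members, and nothing is read from their count. SAUR20 (-2.67 ± 0.28), SAUR21 (-2.86 ± 0.42) and SAUR22 (-2.89 ± 0.39) had the largest falls among the SAUR genes, SAUR23 (-1.89 ± 0.22) and SAUR19 (-1.98 ± 0.33) the smallest, and SAUR24 lay between them (-2.42 ± 0.31). The summed SAUR counts gave -2.52 ± 0.28. Without WT library 1, which held more PRE1 reads than library 2, the value for PRE1 was -3.24.

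**Figure D2:**
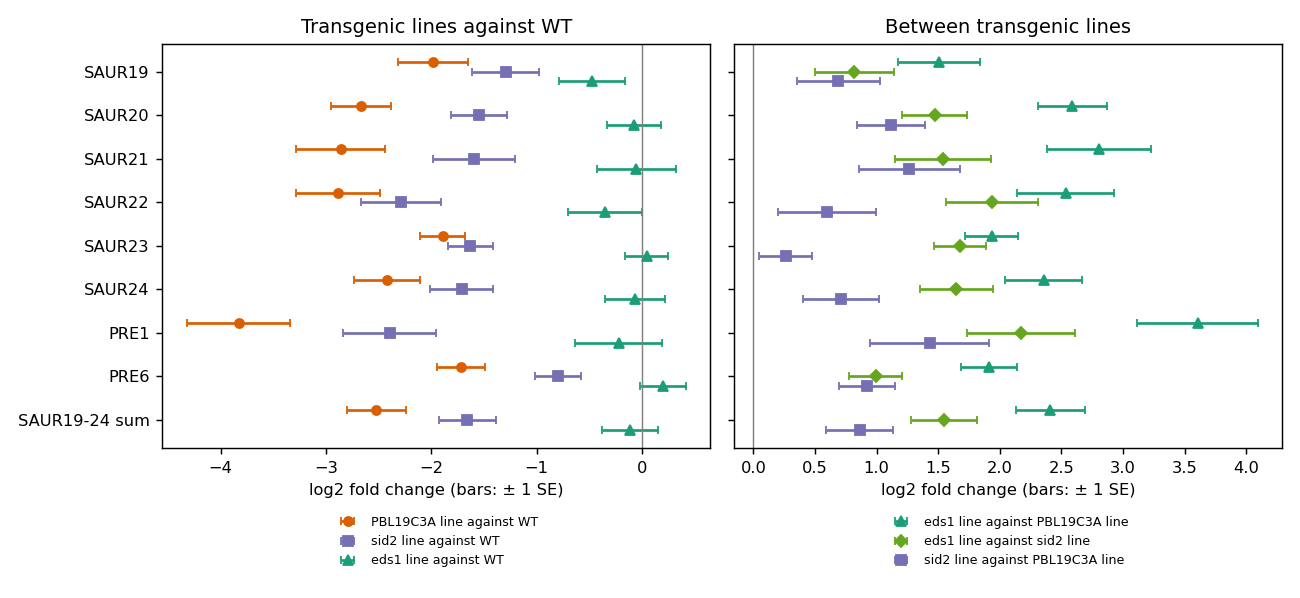
Log2 fold change (x axis) of each member and of the summed SAUR19 to SAUR24 counts (y axis) for transgenic lines against WT (left) and between transgenic lines (right), with bars of ± 1 SE from the fit of all 8 libraries. The eds1 line lies near 0 against WT, from -0.48 for SAUR19 to 0.20 for PRE6, and the sid2 line lies between the PBL19C3A line and 0 for every member.

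By the labels, the eds1 and sid2 lines carry the same construct and differ in the added mutation. PBL19 reads also differed between them, as given below, so mutation and PBL19 level cannot be told apart here. The comparison of these lines uses no library of the contrast that led to the choice. Its p-values are not fully independent of that choice, because the spread is estimated from all 8 libraries. Earlier results of these data were also known when the members were chosen. All 8 measured members had higher values in the eds1 line, with no overlap between the groups (24.6% of all genes were higher without overlap). The median log2 fold change was 1.59, where that of all genes was 0.01. The test was passed by 6 of the 8, where 2.39% of all genes were called higher and 7.02% lower. These were SAUR23 (1.67 ± 0.21, edgeR adjusted p = 0.00420), SAUR20 (1.47 ± 0.26), SAUR24 (1.65 ± 0.30), SAUR22 (1.94 ± 0.37), PRE1 (2.17 ± 0.44) and PRE6 (0.99 ± 0.22, edgeR adjusted p = 0.0334). SAUR21 (1.54 ± 0.39, edgeR adjusted p = 0.0522) and SAUR19 (0.82 ± 0.32, edgeR adjusted p = 0.165) did not pass. The summed SAUR counts were higher by 1.55 ± 0.27 (edgeR adjusted p = 0.0141). The count of 6 fell to 3 without eds1 library 1, to 1 without eds1 library 2, to 1 without sid2 library 1 and to 2 in a fit of these 4 libraries alone, and SAUR23 was past the threshold in each fit without 1 library (largest edgeR adjusted p = 0.0376). The call of the sum was lost without eds1 library 2 (1.42, edgeR adjusted p = 0.0725, where the fits without 1 library gave 0.00648 to 0.0725) and with these 4 libraries alone (edgeR adjusted p = 0.0582).

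The remaining comparisons share the libraries of WT or of the PBL19C3A line with the contrast that led to the choice, and their values are given side by side with it. Library values that favoured the choice also enter these differences. The calls and p-values of members given for them are therefore a description and no independent test. In the eds1 line against the PBL19C3A line, 8 of 8 members were higher (12% of all genes were called higher and 16.2% lower), with a median of 2.45 where that of all genes was 0.01. PRE1 rose by 3.61 ± 0.49 (edgeR adjusted p = 0.00222), SAUR21 by 2.81 ± 0.42 and SAUR20 by 2.59 ± 0.28 (edgeR adjusted p = 0.000971). SAUR22 rose by 2.54 ± 0.39, SAUR24 by 2.36 ± 0.31, SAUR23 by 1.94 ± 0.22, PRE6 by 1.91 ± 0.23 and SAUR19 by 1.51 ± 0.33 (edgeR adjusted p = 0.0151). The sum of the SAUR counts rose by 2.41 ± 0.28 (edgeR adjusted p = 0.00125). Without 1 library 7 or 8 members were called, and SAUR19 was the member whose call was lost, without either library of the PBL19C3A line or eds1 library 2.

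In the sid2 line against WT, 8 of 8 members were lower, where 4.05% of all genes were called lower and 12.1% higher, with a median of -1.61 where that of all genes was 0.00. PRE1 (-2.40 ± 0.44, edgeR adjusted p = 0.0116) and SAUR22 (-2.29 ± 0.38) were furthest down, and SAUR23 (-1.63 ± 0.21) had the smallest edgeR adjusted p, 0.00302. SAUR24 (-1.71 ± 0.30), SAUR21 (-1.60 ± 0.39), SAUR20 (-1.55 ± 0.26) and SAUR19 (-1.29 ± 0.32) followed. PRE6 changed least (-0.79 ± 0.22, edgeR adjusted p = 0.0486). The sum of the SAUR counts was lower by -1.66 ± 0.27 (edgeR adjusted p = 0.00740) and passed in each fit without 1 library. The number of members called was 2 without WT library 1, 5 without WT library 2, 3 without sid2 library 1, 7 without sid2 library 2 and 5 with the 4 libraries alone.

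In the sid2 line against the PBL19C3A line, 0 of 8 members passed edgeR's test, where 0.651% of all genes were called higher and 1.98% lower. All 8 estimates were above 0, from 0.26 ± 0.22 (SAUR23) to 1.43 ± 0.49 (PRE1), with a median of 0.82. The libraries of 7 members did not overlap, SAUR22 being the exception (24.3% of all genes were higher without overlap). At an unadjusted p under 0.05 there were 4, and DESeq2 called 4, namely SAUR20, SAUR21, PRE1 and PRE6. The smallest edgeR adjusted p was 0.0848, for PRE6 (0.92 ± 0.23). The summed SAUR counts were higher by 0.86 ± 0.27 (edgeR adjusted p = 0.157, DESeq2 adjusted p = 0.0343, and 0.0695 to 0.528 in edgeR without 1 library).

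Between the eds1 line and WT, 0 of 8 members passed edgeR's or DESeq2's test in either direction, and 0 had an unadjusted p under 0.05 in edgeR. Of all genes, 0.125% were called lower and 0.0342% higher. The estimates ran from -0.48 ± 0.31 for SAUR19 to 0.20 ± 0.22 for PRE6, and that of the summed SAUR counts was -0.11 ± 0.26. The libraries of 2 members, SAUR19 and SAUR22, lay below those of WT without overlap (11.5% of all genes did). A p that misses the threshold does not show equal levels.

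PBL19 reads were higher in the lines where the members were low, and lower in the eds1 line than in the sid2 line by -3.93 ± 0.35 (edgeR adjusted p = 0.000886). The mean was 1917 ± 396 FPKM for the PBL19C3A line, 791 ± 233 for the sid2 line and 51.5 ± 19.2 for the eds1 line. Its part in the members' differences was not tested.

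The libraries of a genotype also differed in ways the members shared. In counts scaled for library size (CPM), all 8 measured members of the sid2 line were lower in library 1 than in library 2, by a median of 0.85 on the log2 scale, from 0.21 to 1.27, while the median over 17327 genes was 0.00. In WT all 8 were higher in library 1, by a median of 0.32, and the median over those genes was again 0.00. In the PBL19C3A line 7 of 8 were lower in library 1 (median -0.19), and in the eds1 line 5 of 8 by CPM (median -0.08). Flower and meristem markers were higher in library 1 than in library 2 in every genotype, with summed FPKM of 3 genes of 4.86 and 1.82 in WT, 5.76 and 1.91 in the eds1 line, 5.90 and 1.85 in the sid2 line and 7.79 and 1.39 in the PBL19C3A line, while AP1, LFY and AG were not listed. The part of these markers in the gaps between libraries was not tested.

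Markers of leaf cell types moved with the members. The 5 rosette leaf markers summed to 29489 and 27749 FPKM in WT and 24654 and 28012 in the eds1 line, against 22983 and 23523 in the sid2 line and 18096 and 19941 in the PBL19C3A line. All 5 of these were lower in the PBL19C3A line than in WT, where 14.9% of all genes were, and 3 in the sid2 line, where 4.05% were. The sid2 calls, of LHCB2.1, CA1 and LHCB1.1, were each lost without any 1 of the compared libraries. The 6 epidermis and guard cell markers summed to 277 and 304 FPKM in WT, 260 and 342 in the eds1 line, 213 and 207 in the sid2 line and 188 and 192 in the PBL19C3A line. Among them KAT1, a guard cell potassium channel, was lower by -1.87 ± 0.22 (edgeR adjusted p = 0.000901) in the PBL19C3A line and by -1.42 ± 0.21 (edgeR adjusted p = 0.00536) in the sid2 line. The 3 phloem markers summed to 142 and 139 FPKM in WT, 119.8 and 144 in the eds1 line, 111 and 96.5 in the sid2 line and 100.2 and 90.9 in the PBL19C3A line. The root marker PYK10 was at 66.4 and 66 FPKM in the PBL19C3A line and 101 to 151 elsewhere, and EXPA7, COBL9, LRX1 and NRT2.1 were not listed. In the eds1 line against the sid2 line, 1 leaf marker and 2 epidermis and guard cell markers were higher and 0 lower, with 2.39% of all genes called higher. Those calls, of LHCB2.1, KAT1 and ATML1, were each lost without sid2 library 1. The part of these markers in the members' differences was not tested.

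Of the 5 measured genes between and beside the SAUR copies, 2 were higher, 1 was lower and 2 did not pass the test in the PBL19C3A line against WT. TRP1, the nearest measured gene before SAUR19, encodes an enzyme of tryptophan synthesis and stood at 24.6 and 25.2 FPKM in WT, 22.7 and 25.3 in the eds1 line, 56.9 and 55.6 in the sid2 line and 60 and 48.8 in the PBL19C3A line. It was higher in the PBL19C3A line than in WT by 1.08 ± 0.12 (edgeR adjusted p = 0.000831), where SAUR19 had -1.98. AT5G18040, between SAUR21 and SAUR22, was also higher there (0.59 ± 0.16, edgeR adjusted p = 0.0267). AT5G18065 (0.26 ± 0.32) and DRT101 (-0.01 ± 0.17), between SAUR23 and SAUR24, did not pass the test. CSD3, beyond SAUR24, which encodes a superoxide dismutase, was lower by -0.59 ± 0.13 (edgeR adjusted p = 0.0127). For the eds1 line against the sid2 line, TRP1 differed by -1.21 ± 0.12 (edgeR adjusted p = 0.00177), against 0.82 for SAUR19, and the remaining 4 neighbours did not pass.

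**Figure D3:**
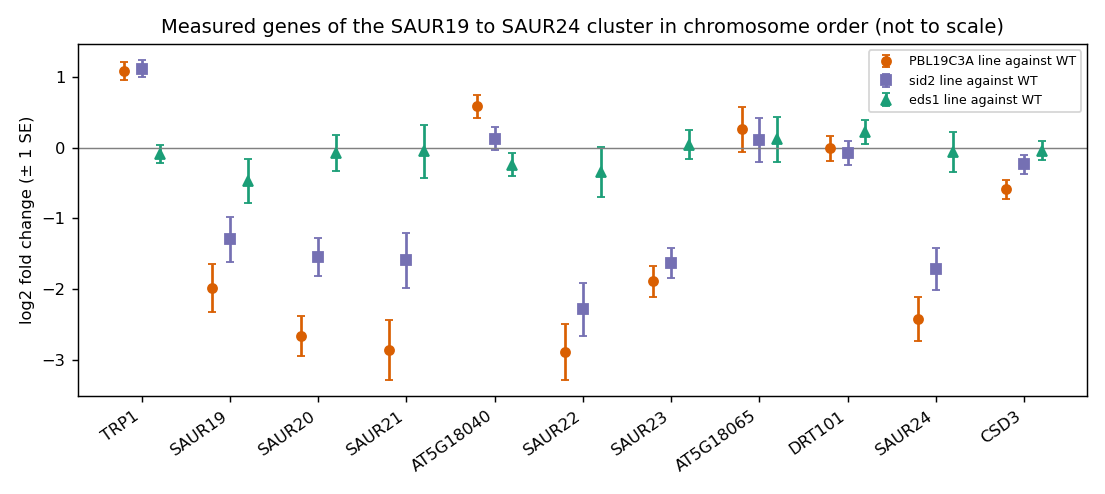
Log2 fold change against WT with ± 1 SE (y axis) for the measured genes of the SAUR cluster in chromosome order (x axis, not to scale). The SAUR genes lie between -1.29 and -2.89 in the PBL19C3A and sid2 lines, and the 5 genes between or beside them lie between -0.59 and 1.12.

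Other SAUR genes were also mostly lower in the PBL19C3A line. This list and those that follow were chosen with earlier results of these data known. Their counts and p-values are therefore a description and no independent test. Of 32 genes on the list, 24 were tested in each of the comparisons that follow. In the PBL19C3A line against WT, 18 were lower, 2 were higher and 4 did not pass (median -1.53), where 14.9% and 21.4% of all genes were called lower and higher. SAUR61 stood at 5.95 and 4.49 FPKM in WT and 1.00 and 0.601 in the PBL19C3A line, with 1.74 and 2.78 in the sid2 line and 4.88 and 3.83 in the eds1 line, and the low lines did not overlap with the others. It was lower by -2.70 ± 0.38 in the PBL19C3A line (edgeR adjusted p = 0.00185). In the sid2 line against WT 5 were lower, 2 were higher and 17 did not pass (median -1.07). Of all genes 4.05% were called lower and 12.1% higher there. Among the lower was SAUR16 at -1.43 ± 0.22 (edgeR adjusted p = 0.00626). In the eds1 line against the PBL19C3A line 15 were higher and 2 lower (median 1.45), where 12% and 16.2% of all genes were. SAUR66 rose there by 2.40 ± 0.34 (edgeR adjusted p = 0.00280). Of all genes, 2.39% were called higher and 7.02% lower in the eds1 line against the sid2 line. Of the other SAUR genes 22 of 24 estimates were above 0 there (median 0.98). Called were 1 higher, SAUR16 (1.42 ± 0.22, edgeR adjusted p = 0.00949), and 1 lower, SAUR36. Each of these calls was lost without eds1 library 2 or sid2 library 1.

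SAUR36, a positive regulator of leaf senescence, went the other way from the SAUR19 subfamily. It stood at 0.800 and 0.769 FPKM in WT, 2.17 and 1.53 in the eds1 line, 5.91 and 4.40 in the sid2 line and 5.90 and 5.60 in the PBL19C3A line. No library of a transgenic line was as low as WT, and the PBL19C3A and sid2 lines overlapped. The log2 fold change was 2.81 ± 0.26 in the PBL19C3A line (edgeR adjusted p = 0.000409), 2.63 ± 0.26 in the sid2 line (edgeR adjusted p = 0.00115) and 1.18 ± 0.26 in the eds1 line (edgeR adjusted p = 0.539) against WT. SAUR41 was the other member of the family called higher in the PBL19C3A and sid2 lines.

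**Figure D4:**
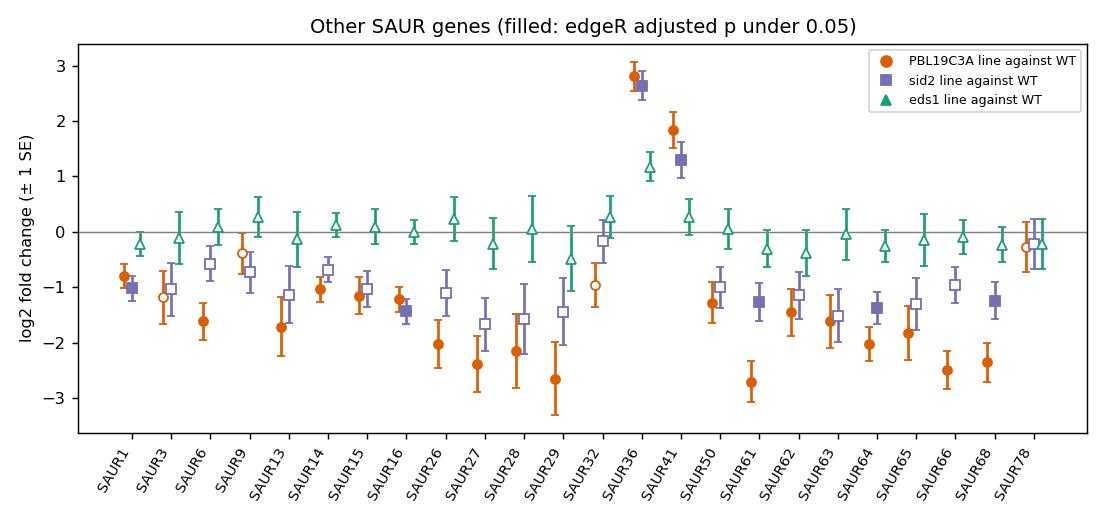
Log2 fold change against WT with ± 1 SE (y axis) of the other SAUR genes (x axis). Filled symbols passed an edgeR adjusted p of 0.05. SAUR36 and SAUR41 lie above 0 in the PBL19C3A and sid2 lines, and in the PBL19C3A line 18 genes are called lower.

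Of the other PRE genes, PRE2 alone had values, and its order of genotypes differed from that of PRE1 and PRE6. It stood at 6.20 and 5.31 FPKM in WT, 8.75 and 8.16 in the eds1 line, 2.94 and 2.49 in the sid2 line and 5.18 and 3.79 in the PBL19C3A line. The sid2 line was lowest and the eds1 line highest, with no overlap with the other groups. PRE2 did not pass the test in the PBL19C3A line against WT (-0.40 ± 0.24, edgeR adjusted p = 0.232). It was lower in the sid2 line than in WT by -1.14 ± 0.24 (edgeR adjusted p = 0.0208), a call lost without WT library 1 or either sid2 library, and higher in the eds1 line than in the sid2 line by 1.65 ± 0.24 (edgeR adjusted p = 0.00762), a call present in each fit without 1 library.

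Genes for the bHLH proteins that PRE proteins bind or that repress growth in the same module were in part lower in the lines where PRE1 and PRE6 were low. Of 9 measured, 6 were lower in the PBL19C3A line than in WT (median -1.21, with 14.9% of all genes called lower) and 4 in the sid2 line (median -0.73, with 4.05% of all genes), and 0 were higher. Against the PBL19C3A line 6 were higher in the eds1 line (median 0.99, with 12% of all genes called higher), and against the sid2 line 5 were (median 1.06, with 2.39% of all genes). PAR2, a repressor of auxin-responsive growth, stood at 7.59 and 9.07 FPKM in WT, 6.13 and 8.52 in the eds1 line, 2.87 and 2.51 in the sid2 line and 3.57 and 2.48 in the PBL19C3A line, so the low and high lines did not overlap. It was lower by -1.50 ± 0.29 in the PBL19C3A line (edgeR adjusted p = 0.00663) and by -1.69 ± 0.29 in the sid2 line (edgeR adjusted p = 0.00864). IBL1, a relative of IBH1, was lower by -1.63 ± 0.22 in the sid2 line against WT (edgeR adjusted p = 0.00359) and higher by 1.58 ± 0.22 in the eds1 line against the sid2 line (edgeR adjusted p = 0.00624). HFR1 was at 25.9 and 36.5 FPKM in WT, 44.5 and 52.3 in the eds1 line, 8.39 and 19.3 in the sid2 line and 11.1 and 13.5 in the PBL19C3A line, so that the eds1 line stood above WT in both libraries. HFR1 was called lower in the PBL19C3A line (-1.38 ± 0.37, edgeR adjusted p = 0.0240), a call lost without either library of that line or WT library 2.

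IBH1 and HBI1 are the best known repressor and activator of this module, and were added after their values were seen. IBH1 was at 15.5 and 16.0 FPKM in WT and 21.9 and 23.5 in the PBL19C3A line (0.49 ± 0.22, edgeR adjusted p = 0.130), and HBI1 at 127 and 170 in WT and 93.7 and 113 in the PBL19C3A line (-0.56 ± 0.28, edgeR adjusted p = 0.153). Neither passed the test in any comparison. Of 8 measured growth-promoting bHLH activator genes, 2 were lower and 1 higher in the PBL19C3A line than in WT, against 14.9% and 21.4% of all genes, and 0 passed in the sid2 line against WT. In the eds1 line against the PBL19C3A line, 1 was lower, while with upper-quartile scaling 2 were higher and 0 lower. Of all genes 12% were called higher and 16.2% lower there. With upper-quartile scaling 3554 of 17358 genes were called higher and 2115 lower.

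The genes for PP2C.D phosphatases and for plasma membrane proton pumps were called in both directions. In the PBL19C3A line against WT, 21.4% of all genes were called higher and 14.9% lower. With upper-quartile scaling 3017 of 18048 genes were called higher and 4141 lower. Of the 9 PP2C.D phosphatase genes, 4 were higher and 2 lower in the PBL19C3A line than in WT (2 and 2 with upper-quartile scaling). In the sid2 line against WT 2 were higher and 1 lower, where 12.1% and 4.05% of all genes were. PP2C.D9 stood at 2.45 and 2.37 FPKM in WT, 3.81 and 4.52 in the eds1 line, 5.32 and 3.68 in the sid2 line and 13.7 and 12 in the PBL19C3A line. The PBL19C3A line stood above all other libraries. PP2C.D9 was higher there than in WT by 2.37 ± 0.22 (edgeR adjusted p = 0.000358), and lower in the eds1 line than in the PBL19C3A line by -1.61 ± 0.21 (edgeR adjusted p = 0.00187). PP2C.D7 went down, from 5.47 and 8.66 FPKM in WT to 2.32 and 2.48 in the PBL19C3A line (-1.59 ± 0.28, edgeR adjusted p = 0.00435). PP2C.D1 was lower in the sid2 line than in WT (-1.43 ± 0.30, edgeR adjusted p = 0.0187), a call lost without either WT library or sid2 library 1. Of 8 proton pump genes, 2 were higher and 3 lower in the PBL19C3A line than in WT, and with upper-quartile scaling 0 were higher. The 2 lower phosphatase genes and the 2 higher pump genes are near the shares of all genes. AHA3 was lower by -0.72 ± 0.10 (edgeR adjusted p = 0.00175), from 103 and 93.4 FPKM to 61.7 and 61.3.

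Genes of the hormone and light pathways upstream of the members are read against the 14.9% of all genes called lower in the PBL19C3A line and the 4.05% in the sid2 line. Called higher were 21.4% and 12.1% of all genes in the same order. Of 11 auxin genes, 4 were lower in the PBL19C3A line than in WT and 3 in the sid2 line. In the eds1 line against the sid2 line 4 were higher, where 2.39% of all genes were. In each of these comparisons 0 were called in the opposite direction. IAA29, an auxin response repressor gene, stood at 12 and 11.2 FPKM in WT, 19.8 and 18.9 in the eds1 line, 2.22 and 4.06 in the sid2 line and 2.62 and 2.83 in the PBL19C3A line. The eds1 line was above WT and the low lines overlapped with each other. IAA29 was lower by -2.13 ± 0.27 in the PBL19C3A line (edgeR adjusted p = 0.00126) and by -1.95 ± 0.27 in the sid2 line (edgeR adjusted p = 0.00364), and higher by 2.64 ± 0.27 in the eds1 line against the sid2 line (edgeR adjusted p = 0.00175). YUC9, which encodes a flavin monooxygenase of auxin synthesis, stood at 2.28 and 2.32 FPKM in WT and 0.626 and 0.448 in the PBL19C3A line (-2.12 ± 0.40, edgeR adjusted p = 0.00613), with 0.842 and 0.420 in the sid2 line and 2.93 and 4.23 in the eds1 line.

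PIF4, which encodes a growth-promoting factor of light and temperature signalling, was at 163 and 187 FPKM in WT, 177 and 188 in the eds1 line, 85.2 and 120 in the sid2 line and 90.5 and 114 in the PBL19C3A line. Of 9 genes of the PIF and light list, PIF4 was the 1 called lower in the PBL19C3A line (-0.82 ± 0.19, edgeR adjusted p = 0.0154, lost without PBL19C3A library 1 or WT library 2), and with upper-quartile scaling 5 were. That 1 of 9 is no larger a share than the 14.9% of all genes. With upper-quartile scaling 4141 of 18048 genes were called lower, against 2682 without it. Of 11 measured brassinosteroid genes, 4 were lower and 1 higher in the PBL19C3A line than in WT. DWF4, a rate-limiting enzyme of brassinosteroid synthesis, was lower by -1.11 ± 0.17 (edgeR adjusted p = 0.00253). BAK1, a co-receptor of the brassinosteroid receptor and of immune receptors, was higher by 1.24 ± 0.16 (edgeR adjusted p = 0.00131), from 15.1 and 19.0 to 43.7 and 39.1 FPKM. Of 10 measured gibberellin genes 7 were lower and 1 was higher in that comparison (median -1.05). RGL1, a DELLA growth repressor, was lower by -1.93 ± 0.36 (edgeR adjusted p = 0.00589), and the synthesis gene GA20OX1 by -2.23 ± 0.47 (edgeR adjusted p = 0.00994), a call lost without PBL19C3A library 1. With upper-quartile scaling the median log2 fold change of all genes moved to -0.14 in the PBL19C3A line against WT and to 0.16 in the eds1 line against it, shifts smaller than the change of any member there.

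The genes with values most like the members over the 8 libraries were sought among 9513 further genes with a mean of at least 10 FPKM, by Pearson's correlation of log2 counts scaled for library size with the mean standardised value of the members. The 5 closest were AT4G33625 (r = 0.994), LHB1B1 (AT2G34430, r = 0.993), BTR1L (AT5G04430, r = 0.993), AT4G32330 (r = 0.992) and the expansin gene EXP3 (AT2G37640, r = 0.991). The libraries are 4 pairs of the same genotype in separate high and low clusters, so r describes the order of genotypes and has no test. AT4G33625 stood at 52.7 ± 0.128 FPKM in WT, 50.8 ± 1.21 for the eds1 line, 29.3 ± 3.93 for the sid2 line and 21.3 ± 1.72 for the PBL19C3A line. EXP3 stood at 22.8 ± 2.76, 21.9 ± 1.17, 12.8 ± 1.15 and 9.73 ± 1.25 FPKM in the same order. Both kept the order of the summed SAUR level, with the smallest values in the PBL19C3A line. They were picked for likeness to the members, so this shared order is no separate result.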

How the data were processed

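Per the file headers, the deposited data are read counts of each gene, not normalized, with an FPKM level for each that the authors calculated. Each of 3 count tables has columns for WT and 1 transgenic line; the names of 2 of them speak of other pairs, and the columns were followed. Values held in more than 1 file (284202) were identical. Per the submitters' processing notes HISAT2 2.0.4 and TAIR10 were used. The counter, strand setting and gene filter are not given in the sources used here. The 18333 genes listed in any table were joined (17327 in all), and no column lacked a sample.

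The quasi-likelihood test of edgeR 4.0.16 (R 4.3.3; TMM scaling, filterByExpr, Benjamini-Hochberg) was run on these counts, with 1 model for all 8 libraries and genotype as its factor. A gene missing from a table was fitted with the libraries that have a value, a step added after the tables were seen. The summed SAUR19 to SAUR24 counts were tested as 1 row in place of the 6. The biological coefficient of variation was 18.1%. The procedure was tested on simulated data. Alternatives were DESeq2 1.42.0, other scalings, other count filters, fits of the compared libraries alone, a term for library number, and each library left out. Motifs, coding sequences and shared windows were read from the RefSeq genome and annotation TAIR10.1, whose coordinates are not mixed with the deposited files.

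The members and lists, those of markers included, were chosen with earlier results of these data known. The calls and p-values of listed genes are therefore a description. Named genes were the members, up to 3 called genes with the largest change per list and comparison, PBL19, ICS1 and EDS1, and the 5 genes most like the members. ICS1 and EDS1 were checked against the labels and are not described here. Depth ran from 37373977 to 51202472 counts per library, and the counts behind a value, 19 to 772 for members, limit its precision.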

Additional observations from a re-analysis of the deposited data

How the results depend on the processing

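No result changed sign under any alternative where it was called. For the eds1 line against the sid2 line, 2 members were called with the 4 compared libraries alone and 1 to 6 without 1 library, against 6. The summed SAUR counts there gave 1.55 with the 4 libraries alone and 1.19 to 2.02 without 1 library. For the sid2 line against WT, 5 members were called with the 4 libraries alone and 2 to 7 without 1 library (sum -2.14 to -1.30). For the sid2 line against the PBL19C3A line, DESeq2 called 4 members and gave 0.87 for the sum, and edgeR 0 without any 1 library (sum 0.39 to 1.22). Ranges without 1 library were 7 to 8 members for the eds1 line against the PBL19C3A line (sum 2.27 to 2.55) and 0 for the eds1 line against WT (sum -0.25 to 0.05). The causes were not tested.

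Genes called over all tested changed by more than 1.5 times with DESeq2 (2573 against 1636 for the eds1 line against the sid2 line, 92 against 28 for the eds1 line against WT, 1377 against 469 for the sid2 line against the PBL19C3A line) and with the 4 libraries alone (848 and 17 for the first pair of comparisons). Without 1 library the lowest counts were 617, 23 and 24, and for the remaining comparisons 3729 of 6536 (PBL19C3A line against WT), 2479 of 4894 (eds1 line against the PBL19C3A line) and 1187 of 2906 (sid2 line against WT). With upper-quartile scaling the share of calls that were lower moved from 41.0% to 57.9% (PBL19C3A line against WT), 57.4% to 37.3% (eds1 line against PBL19C3A line), 74.6% to 59.3% (eds1 line against sid2 line) and 25.1% to 41.7% (sid2 line against WT).

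The library numbers are shared between genotypes, but no label says that they mark a batch. Deviations of same-numbered libraries correlated at 0.134 to 0.345 over 17327 genes. With a replicate block for the number, 7 members were called in the eds1 line against the sid2 line, SAUR21 being added (1.58, edgeR adjusted p = 0.0344), the sum was 1.57, and all other member counts were as without it, while the counts over all genes were 2471 for the eds1 line against the sid2 line and 924 for the sid2 line against the PBL19C3A line.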
